A study of Drosophila melanogaster with 4 samples.

Results

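Astacins are zinc metalloproteases, enzymes that cut proteins with a zinc ion held by histidines in the active site. They are made as secreted or membrane-bound proenzymes and become active once a propeptide has been removed. The family takes its name from a digestive enzyme of the crayfish, and other branches of it process signalling proteins, as the tolloid proteases of the fly do for an inhibitor of bone morphogenetic protein (BMP) signals. Described here are 8 astacin genes of Drosophila melanogaster, CG15255, CG15254, CG15253, CG7631, Semp1, CG6763, CG6696 and CG6974, out of 13585 gene IDs measured in midgut RNA. They were chosen by gene family with their normalized counts in all 4 libraries known, so those values are given as a description and support no test of the list.

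The study compared midguts of flies that had received uracil, a nucleobase that certain gut bacteria release and that makes the gut lining produce reactive oxygen, with midguts of untreated control flies. Both were taken at 2 h and at 16 h, which gives 4 groups (untreated 2 h, uracil 2 h, untreated 16 h and uracil 16 h) of 1 library each. The strain, sex and age of the flies and the dose of uracil are not stated in the sources used here. Poly(A) RNA was sequenced, and reads in genes came to between 8500378 and 16588143 per library, the highest being untreated 16 h. No group was repeated, so a difference between 2 libraries cannot be set against a spread between replicates, and brackets after a fold hold a 95% interval that covers counting error only. In a whole organ, fewer cells of a type and less RNA per cell cannot be told apart.

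The 8 genes fell into a group that was abundant in every library, a pair that was high in a single library, and a group near or at 0. Levels are in normalized counts, the authors' read counts divided by an effective library size, in which 1 read was worth between 0.0584 and 0.127. A mean of at least 1 CPM (counts scaled to a common column total) over the 4 libraries was reached by 4 of the 8 genes, namely CG15255, CG7631, CG15254 and CG15253. The closest gene below that line was CG6763, with a mean of 0.636 CPM. CG15253, with the lowest mean of the 4 at 9.12 CPM, had a mean of 1.49 CPM without the uracil 16 h library, so it would have passed without the library in which it was highest.

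**Figure D1:**
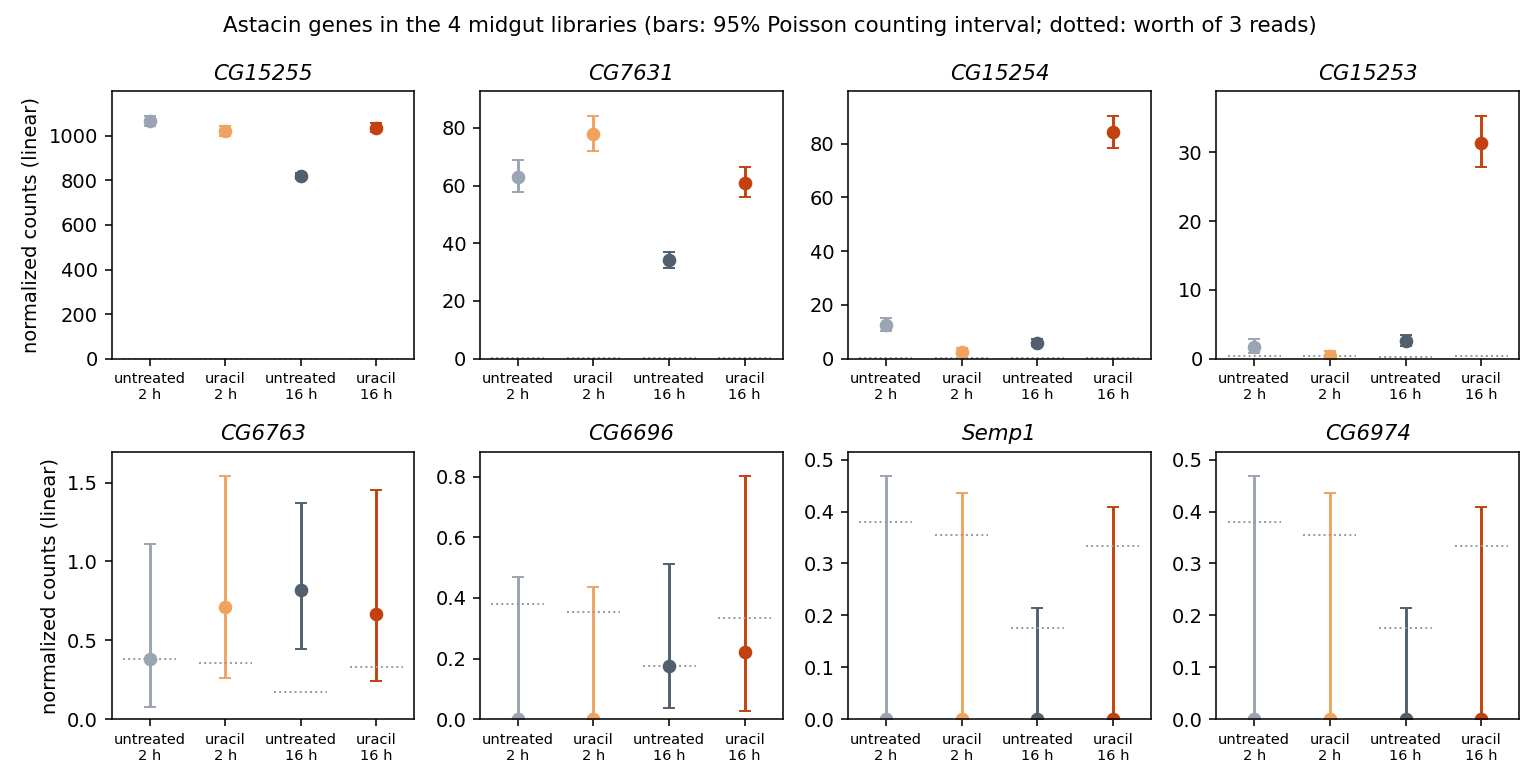
Normalized counts (linear axis, a scale of its own in each panel) of the 8 astacin genes in the 4 libraries; bars are 95% Poisson counting intervals and dotted lines mark what 3 reads are worth. CG15255 lay between 821 and 1067 and CG7631 between 34.1 and 78.0, while CG15254 and CG15253 stood at 84.2 and 31.4 in uracil 16 h and at no more than 12.6 and 2.51 elsewhere.

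CG15255 (FBgn0028950) was the most abundant of the family by far. It stood at 1067 normalized counts in untreated 2 h, 1022 in uracil 2 h, 821 in untreated 16 h and 1037 in uracil 16 h. The untreated 16 h library was the low one, and the other 3 lay within a narrow band. Uracil against untreated, its ratio was 0.958 at 2 h (0.93 to 0.988) and 1.26 at 16 h (1.23 to 1.3). From 2 h to 16 h the ratio was 0.77 in untreated guts (0.749 to 0.791) and 1.01 in uracil-treated guts (0.985 to 1.04). Per kilobase of exon, the scale on which genes can be compared, it reached between 530 and 689 normalized counts and ranked between 146 and 158 from the top among 8130 genes with a length. This gene took 92.8% of the reads of the 14 astacin genes looked at in untreated 2 h, 92.2% in uracil 2 h, 94.0% in untreated 16 h and 84.9% in uracil 16 h (exact binomial interval 84.2 to 85.6).

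CG7631 (FBgn0028945), a predicted astacin like CG15255, was the next most abundant in 3 of the 4 libraries. Its level was 63.0 normalized counts in untreated 2 h, 78.0 in uracil 2 h, 34.1 in untreated 16 h and 61.0 in uracil 16 h. As with CG15255, untreated 16 h was the lowest library. The ratio of uracil to untreated was 1.24 at 2 h (1.1 to 1.39) and 1.79 at 16 h (1.59 to 2.01), and that of 16 h to 2 h was 0.541 in untreated (0.479 to 0.611) and 0.782 in uracil-treated guts (0.697 to 0.877). Neither CG15255 nor CG7631 reached 2-fold in any of the 4 comparisons.

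CG15254 (FBgn0028949) was lower with uracil at 2 h and far higher with uracil at 16 h. Its level was 12.6 normalized counts in untreated 2 h (99 reads), 2.48 in uracil 2 h (21 reads), 5.9 in untreated 16 h (101 reads) and 84.2 in uracil 16 h (759 reads). The uracil 16 h library was thus the high one and uracil 2 h the low one. At 2 h the uracil library was 5.06-fold lower than the untreated one (3.14 to 8.53), and at 16 h it was 14.3-fold higher (11.6 to 17.7). Between the times the level was 2.13-fold lower at 16 h in untreated guts (1.6 to 2.84) and 33.9-fold higher in uracil-treated guts (22.0 to 55.1). Ordered by log2 ratio over the 8560 genes that passed the 1 CPM line, CG15254 came 22 from the lowest at 2 h and 21 from the highest at 16 h.

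CG15253 (FBgn0028948), next to CG15254 on the chromosome, had a similar order of libraries at lower levels. It stood at 1.65 normalized counts in untreated 2 h (13 reads), 0.354 in uracil 2 h (3 reads), 2.51 in untreated 16 h (43 reads) and 31.4 in uracil 16 h (283 reads). As for CG15254, uracil 16 h was the highest library and uracil 2 h the lowest. The ratio of uracil to untreated was 0.215 at 2 h (0.0393 to 0.782, from 3 uracil reads) and 12.5 at 16 h (9.04 to 17.6), which placed it 33 from the highest of the 8560 genes at 16 h. From 2 h to 16 h the ratio was 1.52 in untreated guts, with an interval that holds 1 (0.804 to 3.09), and 88.5 in uracil-treated guts (30.0 to 432). These time comparisons use the same libraries as the uracil comparisons, so they are another view of the same values.

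The ratio of these neighbours to each other was lower at 16 h than at 2 h in untreated guts. Per kilobase of exon, CG15254 was 8.26 times the level of CG15253 in untreated 2 h (4.62 to 16.1) and 7.6 times in uracil 2 h (2.27 to 39.8). At 16 h it was 2.55 times in untreated (1.77 to 3.73) and 2.91 times in uracil-treated guts (2.54 to 3.35). The interval of untreated 2 h lies above both intervals at 16 h, while that of uracil 2 h, from 3 reads of CG15253, overlaps all the others. The distance between CG15255 and CG15254 spanned a far wider range, from 231 times in uracil 2 h (151 to 373) to 6.9 times in uracil 16 h (6.41 to 7.44), with 47.6 times in untreated 2 h and 78.0 times in untreated 16 h. Reads of CG15254 made up 6.89% of the family's reads in uracil 16 h (6.43 to 7.38) and between 0.224% and 1.09% in the other libraries, and those of CG15253 2.57% (2.28 to 2.88) against 0.032% to 0.288%.

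The remaining 4 genes had few reads or none. Semp1 encodes a seminal fluid protease, made in the male accessory gland and known to process other seminal proteins after mating. It had 0 reads in all 4 libraries, which allows a level of up to 0.38 normalized counts in untreated 2 h, 0.354 in uracil 2 h, 0.175 in untreated 16 h and 0.333 in uracil 16 h at 3 reads each. CG6974 also had 0 reads in every library, with the same limits. CG6696 had 0 reads in both 2 h libraries, 3 in untreated 16 h and 2 in uracil 16 h, which is at or under the floor of 3 reads throughout. CG6763 stood at 0.38 in untreated 2 h, 0.709 in uracil 2 h, 0.818 in untreated 16 h and 0.665 in uracil 16 h, from 3 to 14 reads. None of its 4 ratios had an interval that left out 1, and no difference was detectable at this depth.

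Markers of the male accessory gland and ejaculatory duct were low beside Semp1. Of 21 listed genes 19 matched an ID, 6 of them had 0 reads in every library and 3 reached a mean of 1 CPM (Est-6, antr and lectin-46Cb). The summed level of the list ran from 5.83 to 15.3 normalized counts. The seminal genes Acp26Aa, Acp26Ab and Dup99B were at 0 in all 4 libraries, and SP, which encodes the sex peptide, had 1 read in all.

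Of the 8 genes, 5 lie in a row on chromosome arm 2L. In the Ensembl release 115 annotation (assembly BDGP6), which may differ from the build used by the authors, the row runs from 15610171 to 15629552, over 19.4 kb, and holds a further astacin gene, CG11865. CG15255 (15610171 to 15611719), Semp1 (15612494 to 15613335), CG15254 (15613905 to 15614828) and CG15253 (15615357 to 15616351) follow each other on the minus strand with gaps of 774, 569 and 528 bases. CG11865 (15616997 to 15617915) comes 645 bases further on the plus strand, and CG7631 (15628678 to 15629552), also on the plus strand, lies 10762 bases beyond it. CG6696 is on the X chromosome (18660472 to 18662153, minus strand), and CG6763 (23284002 to 23286041, plus strand) and CG6974 (15078530 to 15079285, minus strand) are on arm 3R.

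Position in the row did not go with level. Semp1, at 0 reads throughout, lies between CG15255, the most abundant gene, and CG15254, and CG11865, with 0 reads in all 4 libraries, lies on the other side of CG15253. Of the genes without an astacin name in the same stretch, Or35a, which encodes an odorant receptor, had between 2 and 7 reads per library. CG18480, next to CG7631, lay between 243 and 357 normalized counts, with ratios of uracil to untreated of 1.06 at 2 h and 0.815 at 16 h. The gene for a noncoding RNA, lncRNA:CR44865, lies on the other strand within CG15255 over 576 bases and is not among the gene IDs measured. The sources used here do not state a strand setting for the counting, so reads from that RNA and from CG15255 cannot be told apart.

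**Figure D2:**
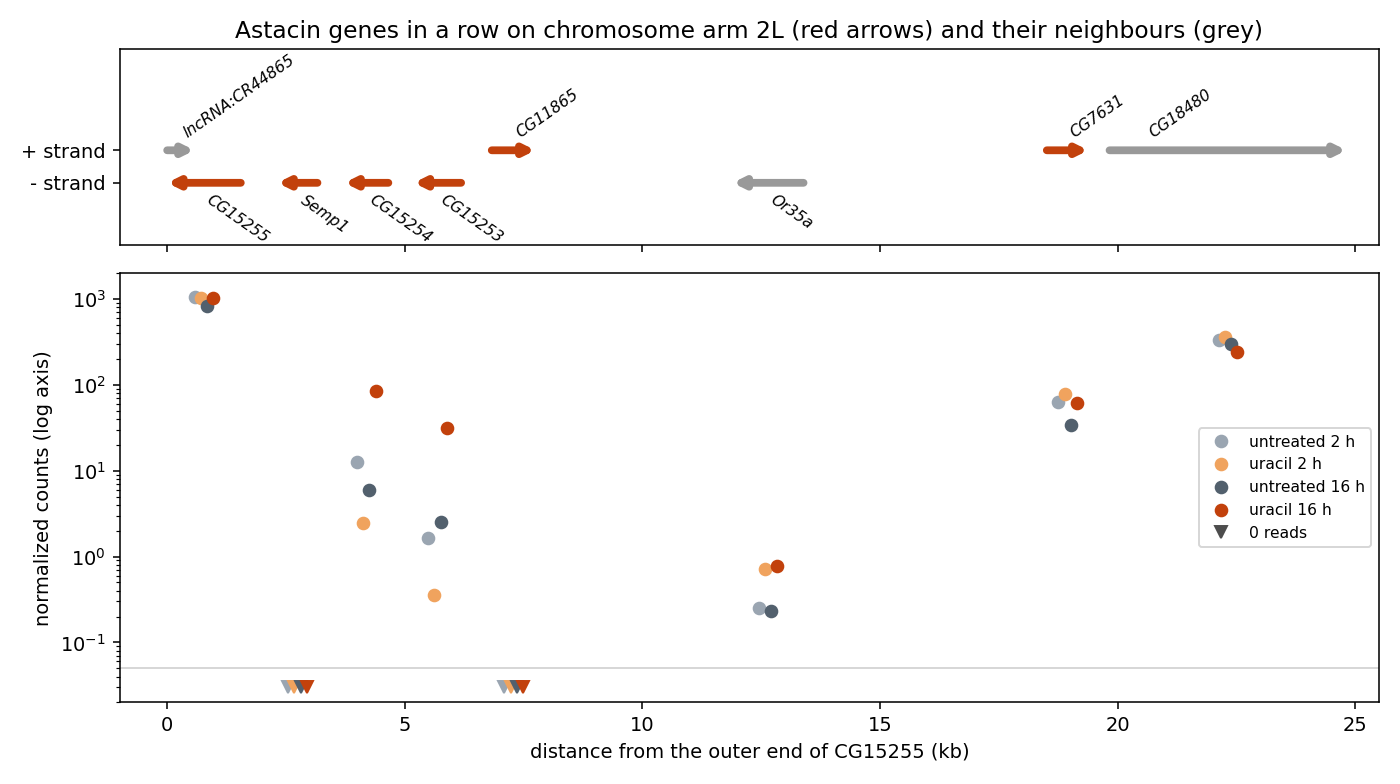
Upper panel, the astacin genes of arm 2L (red arrows) and their neighbours (grey arrows) by strand and distance in kb from the outer end of CG15255; lower panel, normalized counts of each gene in the 4 libraries on a log axis, with triangles for 0 reads. CG15254 and CG15253 spread widely between libraries, at 2.48 to 84.2 and 0.354 to 31.4, while CG15255 lay at 821 to 1067 and CG7631 at 34.1 to 78.0.

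Other astacin genes outside the list were low in these midguts. The tolloid-related protease gene tok, whose product cuts the BMP inhibitor Sog, stood at 2.16 normalized counts in untreated 2 h, 3.54 in uracil 2 h, 4.56 in untreated 16 h and 4.33 in uracil 16 h. Its ratio of uracil to untreated was 1.64 at 2 h (0.878 to 3.18) and 0.949 at 16 h (0.629 to 1.41). The gene tld, which patterns the back-to-belly axis of the embryo, had 1 or 2 reads per library. CG5715 was at 2.66, 1.54, 3.62 and 1.77 in the same order of libraries, a ratio of 0.49 at 16 h (0.264 to 0.86). CG10280 had 0 reads throughout, and CG34370 between 1 and 7.

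Genes of the BMP pathway, on which the tolloid branch acts, are given as a description. Of 18 listed genes 16 matched an ID and 12 were measured, tok among them. Of these 12 genes 0 were 2-fold apart with uracil at 2 h and 0 at 16 h, where 3.0% and 8.66% of all genes were. For 12 genes a count of 0 is near those shares, so nothing is read from it. The medians of the log2 ratio were 0.11 and -0.07, beside 0.01 and -0.02 over all genes. The ligand gene dpp was highest of them in both comparisons, with 25.2 normalized counts beside 16.0 untreated at 2 h, and 61.2 beside 33.9 at 16 h. It was also the gene of the list that was 2-fold higher at 16 h than at 2 h, with log2 ratios of 1.04 in untreated and 1.25 in uracil-treated guts.

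For counts over all genes, a log2 ratio was taken after adding the worth of 1 CPM to each level, and a ratio of 2 or more in either direction was counted. At 2 h, 1 of the 4 measured astacin genes was 2-fold lower with uracil and 0 higher, where 1.51% of the 8560 genes were lower and 1.5% higher. The gene was CG15254 (log2 ratio -1.95), and CG15253 stood just short of the line (-0.96). At 16 h 2 of the 4 were higher, CG15254 (3.62) and CG15253 (3.2), and 0 lower, where 7.66% of all genes were higher, 0.993% lower and 8.66% either. In untreated guts 0 of the 4 were 2-fold apart between the times by this ratio, and CG15254 came closest (-0.97). Of all genes 2.8% were higher, 2.84% lower and 5.64% either. The added 1 CPM draws ratios at low levels towards 1. Without it CG15254 was 2.13-fold lower at 16 h in untreated guts. CG15253 was 4.65-fold lower with uracil at 2 h, from 3 uracil reads. In uracil-treated guts 2 of the 4 were higher at 16 h and 0 lower, where 9.38% of all genes were higher and 2.9% lower. The medians over the 4 genes, -0.51 at 2 h and 2.01 at 16 h, lie between the pair that moved and the pair that did not. The members were listed with these values known, so nothing is read from the shares.

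Effects shared by both times or both treatments were tested over all 8560 genes with limma, in a fit with 1 residual degree of freedom. A uracil effect was called for 3 genes (0.035%) and a time effect for 36 (0.421%) at an adjusted p under 0.05. None of the 4 astacin genes was among them in limma. The model has no term for a uracil effect that differs between the times. For CG15254 and CG15253, lower with uracil at 2 h and higher at 16 h, that difference goes into the residual. A missing call, here or by edgeR and DESeq2 with the same model, therefore does not show that they were unchanged. At an unadjusted p under 0.05 limma gave 1 of the 4 for uracil, where 4.58% of all genes passed, and 2 for time, where 16.0% did. By edgeR, which called 5 genes (0.0584%) for uracil and 26 (0.304%) for time, 0 of the 4 were called, with 0 and 2 at an unadjusted p under 0.05 (4.98% and 15.7% of all genes). DESeq2 called 35 genes for uracil (0.409%) and 294 for time (3.43%), and 0 of the 4. Its unadjusted counts among the 4 were 0 and 0, where 2.82% and 11.5% of all genes passed. The 4 genes were listed with these values known, so nothing is read from the counts.

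**Figure D3:**
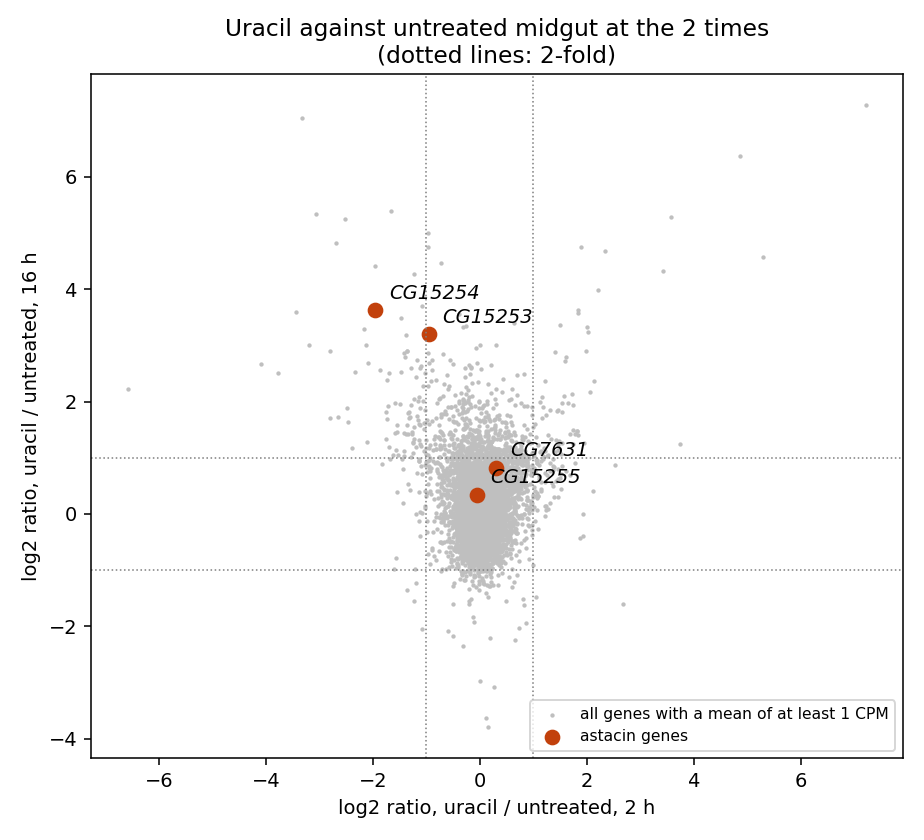
Log2 ratio of uracil to untreated at 2 h (horizontal) and at 16 h (vertical) for the 8560 genes past the 1 CPM line (grey) and for the 4 measured astacin genes (red), with dotted lines at 2-fold. CG15254 (-1.95 and 3.62) lies in the upper left with 94 other gene IDs past both lines, CG15253 (-0.96 and 3.2) at its edge, and CG15255 and CG7631 near the centre.

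The pattern of CG15254, 2-fold lower with uracil at 2 h and 2-fold higher at 16 h, was found in 95 of the 8560 gene IDs (1.11%). That count includes CG15254 itself, and AstA also under a further ID with the same reads. Among them were 6 of 26 Jonah and trypsin genes, which encode gut serine proteases, and 3 of 12 zinc carboxypeptidase genes, whose products trim amino acids from the ends of peptides. Of the 12 other metalloprotease genes measured (matrix metalloproteases, neprilysins, angiotensin-converting enzyme relatives and others) 0 were. The carboxypeptidase gene CG32379 stood at 1.65 normalized counts in untreated 2 h, 0.236 in uracil 2 h, 0.467 in untreated 16 h and 18.3 in uracil 16 h. Jon66Ci, a Jonah protease gene, was at 180, 41.7, 17.5 and 118 in the same order.

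Counts of the protease lists are given beside the astacins as a description. Over all genes, 1.51% were 2-fold lower and 1.5% higher with uracil at 2 h, and 0.993% lower and 7.66% higher at 16 h. At 2 h 6 of 26 Jonah and trypsin genes were 2-fold lower and 0 higher (median log2 ratio -0.23), with zetaTry lowest (0.118 against 18.5). Among zinc carboxypeptidases 3 of 12 were lower and 0 higher (median -0.44), with CG18585 lowest (0.827 against 24.3). At 16 h 11 of the 26 and 7 of the 12 were higher and 0 of either lower, with medians of 0.39 and 1.24. The gene with the highest mean counts in each list was less than 2-fold apart at 16 h, as CG15255 was. Jon65Aiv stood at 4625 normalized counts with uracil and 4144 without, and the carboxypeptidase gene CG12374 at 10213 and 8330. Summed over each list, the ratio of uracil to untreated at 16 h was 1.4 for the astacins, 1.31 for Jonah and trypsin genes and 1.41 for carboxypeptidases. The astacin sum, 865 to 1214 normalized counts, was small beside 27941 to 59849 for the serine proteases and 11644 to 18442 for the carboxypeptidases.

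**Figure D4:**
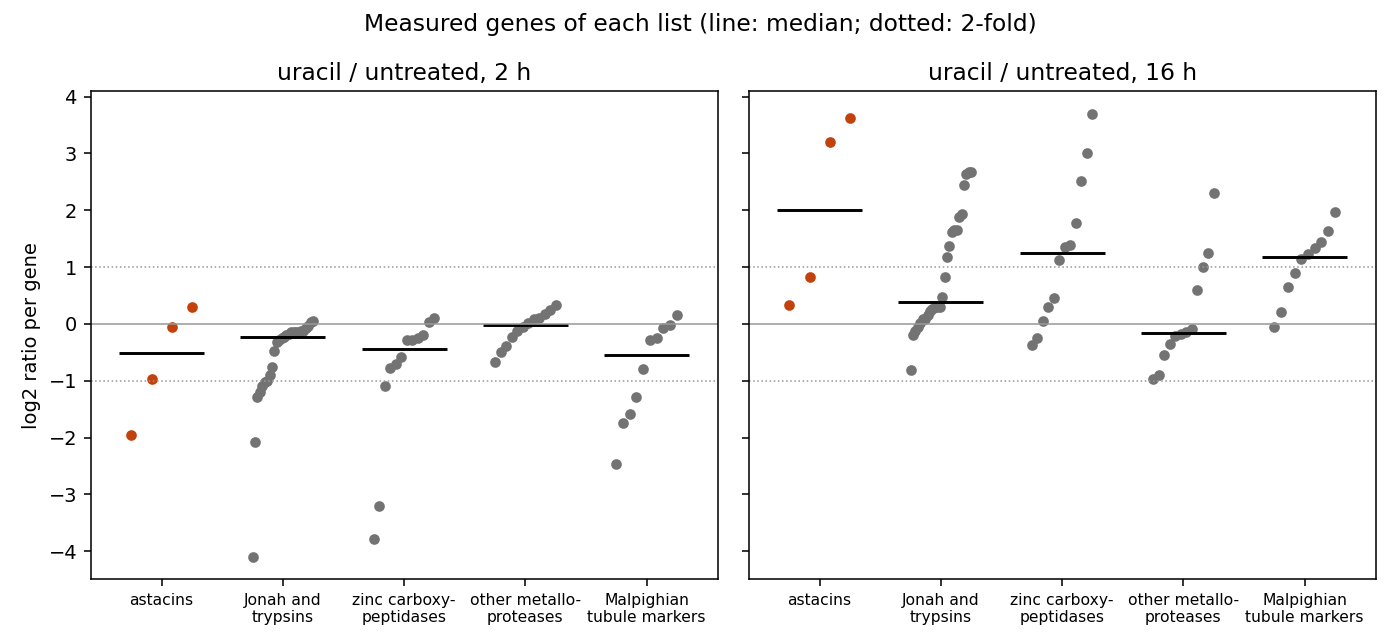
Log2 ratio of uracil to untreated for each measured gene of 5 lists at 2 h (left) and 16 h (right); black lines are medians and dotted lines mark 2-fold. Of the 4 astacin genes 2 lie above 3 at 16 h, and the median of the tubule markers is -0.54 at 2 h and 1.19 at 16 h.

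Malpighian tubules, the excretory organs joined to the gut at the end of the midgut, had some markers that moved with CG15254 and CG15253 and others that did not. Of 11 listed genes 10 matched an ID, all 10 were measured and 0 were at 0. Their summed level was 366 normalized counts in untreated 2 h, 221 in uracil 2 h, 369 in untreated 16 h and 842 in uracil 16 h. With uracil, 4 of the 10 were 2-fold lower at 2 h and 0 higher, and 6 were 2-fold higher at 16 h and 0 lower. Over all genes, 1.51% were 2-fold lower and 1.5% higher at 2 h, and 7.66% higher and 0.993% lower at 16 h. The urate oxidase gene Uro, lowest of the list at 2 h, stood at 82.6, 14.2, 67.2 and 210 in that order of libraries. For Uro uracil 16 h was thus high and uracil 2 h low, as for the astacin pair. Irk2, with the lowest ratio of the list at 16 h, was nearly level with uracil, at 51.7, 49.0, 59.6 and 57.0 in the same order. The part of tubule tissue in the values of CG15254 and CG15253 was not tested. Markers of enterocytes, the absorptive cells of the midgut that make digestive enzymes, were present throughout, with 7 of 7 measured (alphaTry and betaTry among them are also in the serine protease list), summed levels of 14312 to 23109 and 0 of 7 at least 2-fold apart with uracil at either time.

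Markers of other cell types moved in the same comparisons. Over all genes, 1.51% were 2-fold lower and 1.5% higher with uracil at 2 h, and 0.993% lower and 7.66% higher at 16 h. Of the visceral muscle list 8 of 10 genes matched an ID, and of the hemocyte list 5 of 6. Visceral muscle genes were higher with uracil at both times, 1 of 8 by 2-fold at 2 h and 5 of 8 at 16 h. Their summed level was 1152 normalized counts in untreated 2 h, 1927 in uracil 2 h, 1160 in untreated 16 h and 2491 in uracil 16 h, so that, unlike CG15254 and CG15253, uracil 2 h was not their low library. Hemocyte markers were 2-fold lower in 2 of 4 genes at 2 h and in 3 of 4 at 16 h, with 1 higher at 16 h, and summed to between 55.8 and 82.6. Of 7 enteroendocrine genes 1 was lower at 2 h and 3 were higher at 16 h, with summed levels of 402 to 469. Among these, the peptide hormone gene AstA, had the library order of CG15254, at 5.83, 1.65, 3.1 and 29.6 in untreated 2 h, uracil 2 h, untreated 16 h and uracil 16 h, though the same reads are listed under a further ID. With uracil at 16 h, 1 of 5 copper cell markers was 2-fold lower and 1 of 4 fat body markers was higher. Only 2 of the 5 listed stem cell and enteroblast markers matched an ID, and 0 of those 2 were apart. None of these 3 lists had a gene 2-fold apart at 2 h, and the part of any of these cell types in the astacin values was not tested.

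The genes with the most similar profiles were sought by the distance between log2 levels. The worth of 1 CPM was added to each level, and the log2 levels were centred over the 4 libraries. For CG15254 they were Amyrel, an amylase relative (5.2 normalized counts in untreated 2 h, 1.3 in uracil 2 h, 3.62 in untreated 16 h and 32.6 in uracil 16 h; distance 0.667) and the carboxypeptidase gene CG32379 (distance 0.672). CG15253 came 14 in that order (distance 1.01), and CG15254 came 23 in the order for CG15253. For CG15253, looked up after its values were seen, the nearest were CG10051 (2.54, 0.827, 3.8 and 40.6; distance 0.0639) and the sterol-binding protein gene Npc2d (44.0, 16.3, 50.7 and 467; distance 0.299). For CG15255 they were E(z) (distance 0.019) and Smn (0.0312), and for CG7631 CG18744 (0.0567) and CG15353 (0.0588). CG15353 was low, at 2.03, 2.6, 0.584 and 1.77 in the same order of libraries. At such levels the added 1 CPM draws ratios towards 1. With 4 libraries such likeness is a description of these samples.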

How the data were processed

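The authors deposited 1 normalized count per gene and library, a signal whose values rise in equal steps within a library. Divided by that step, 100% of them came within 0.01 of a whole number, which was used as the read count. Per the submitters' processing notes, edgeR, HTSeq, Bowtie, TopHat2 2.0.5 and cutadapt 1.0 were used, in roles not stated. No build, annotation or strandedness is stated in the sources used here. Lines sharing an ID (118 lines, 57 IDs) were summed, and 12888 of 13585 IDs had a symbol. Exon lengths come from Ensembl release 115.

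Fold intervals are exact (Clopper-Pearson) at 95% and the floor is 3 reads. Both cover counting error only, as PCR copies were not removed by molecular identifiers. With 1 library per group no single comparison has a test. Additive fits of time and treatment used limma 3.58.1 on log2 values, with edgeR 4.0.16 and DESeq2 1.42.0 on the recovered reads as alternatives. The limma and edgeR fits, though not that of DESeq2, were tested on simulated data. Other scalings, filters and pseudocounts were tried as well.

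The 8 genes, the other lists and the settings were chosen with earlier results of these data known. Named are all 8 genes, other listed astacins, neighbours in the row, the 2 nearest profiles of members averaging 10 CPM or more, and the extremes of each list. Other genes named as examples (Jon65Aiv, CG12374, Uro, CG10051, Npc2d, Est-6, antr, lectin-46Cb, Acp26Aa, Acp26Ab, Dup99B, SP, AstA, Nep2) were chosen after their values were seen. A search for further astacins by protein sequence was not made. No sequence is printed, since none of the files used here holds one.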

Additional observations from a re-analysis of the deposited data

Results flagged for a closer look

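The uracil ratio lay on opposite sides of 1 at the 2 times for 3 genes, with neither counting interval holding 1. For CG15254 it was 0.198 at 2 h and 14.3 at 16 h, for CG15253 0.215 and 12.5, and for CG15255, whose ratios are close to 1, 0.958 and 1.26. The change from 2 h to 16 h of CG15254 likewise went opposite ways, with a ratio of 0.47 in untreated and 33.9 in uracil-treated guts. Each side rests on 1 library per group, and the difference between the times or treatments was not tested. The summed tubule markers had ratios of 0.603 at 2 h and 2.28 at 16 h, and their part in these values was not tested.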

How the results depend on the processing

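No paired analysis was possible because each group has 1 library, and no replicate could be left out. The 4 measured genes gave 108 log2 ratios under other scalings, filters and pseudocounts. Of these 101 lay no further from the value reported than 0.5 times the width of its counting interval, and 7 moved further. A change of filter leaves the ratio of a gene as it was, so the ratios under other filters are among the 101 by construction. Among the ratios that were 2-fold apart, 0 changed sign. A pseudocount worth 5 CPM moved CG15254 from -1.95 to -1.22 for uracil at 2 h and from 3.62 to 3.02 at 16 h. It also moved CG15254 from 4.6 to 3.56 for time in uracil-treated guts, and CG15253 from 3.2 to 2.26 for uracil at 16 h. The other ratios that moved were of CG15255. With a pseudocount worth 0.5 CPM, 2 of the 4 genes were 2-fold lower at 2 h in place of 1, and 1 was 2-fold lower at 16 h than at 2 h in untreated guts in place of 0. With a mean of at least 10 CPM, 1 gene in place of 2 was 2-fold higher with uracil at 16 h, and likewise for time in uracil-treated guts. CG15253 (9.12 CPM) falls below that filter. Over all genes, the number 2-fold apart in place of 257, 741, 483 and 1051 (uracil at 2 h, uracil at 16 h, time untreated, time uracil) was 133, 413, 292 and 590 with that filter and 93, 423, 213 and 646 with a pseudocount worth 5 CPM. Scaling by column totals moved the median of all genes from 0.04 to 0.18 for time in untreated guts, and the share of higher genes among those 2-fold apart from 49.7% to 67.2%. That share for uracil at 2 h went from 49.8% to 30.8% with the 10 CPM filter. Calls of a shared uracil effect, 3 by limma, were 29 with no filter, 14 with column totals, 5 by edgeR and 35 by DESeq2. Calls of a shared time effect, 36 by limma, were 329 with no filter, 307 with column totals and 294 by DESeq2. In these fits, which have no term for a uracil effect that differs between the times, 0 of the astacin genes tested were called. The cause of these differences was not tested. Depth limits CG15253 at 2 h (3 and 13 reads) and the 4 genes near 0.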

Other observations

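Among metalloproteases of other families, 2 neprilysin genes, which encode membrane peptidases that cut small peptides, were 2-fold higher with uracil at 16 h. Nep1 stood at 8.5 normalized counts in untreated 2 h, 4.96 in uracil 2 h, 13.8 in untreated 16 h and 72.1 in uracil 16 h. Nep2 was at 4.44, 2.84, 5.32 and 14.0 in the same order. Both had their highest level in uracil 16 h and their lowest in uracil 2 h, as CG15254 and CG15253 did. The 12 measured genes had a median log2 ratio of -0.02 (2 h) and -0.16 (16 h), taken after adding the worth of 1 CPM. By that ratio 2 of the 12 were 2-fold higher at 16 h, where 7.66% of all genes were. Acer, an angiotensin-converting enzyme relative, fell just short of that line, with a log2 ratio that rounds to 1.0 (levels of 25.3 against 12.1). On the other side 0 of the 12 were 2-fold lower at either time by that ratio, where 1.51% (2 h) and 0.993% (16 h) of all genes were. Nep4 came closest at 16 h, at -0.97 (levels of 6.54 against 13.8). Without the added 1 CPM, the levels of Acer and of Nep4 at 16 h were more than 2-fold apart.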
